A study of Mus musculus with 8 samples.

Results

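The genes described here encode enzymes of the tricarboxylic acid (TCA) cycle and its cytosolic branches in mouse macrophages. They were chosen by name: of 9 listed genes, 8 had rows in the probe table (Cs, Idh1, Idh2, Idh3a, Ogdh, Fh1, Mdh1 and Mdh2), through 10 of its 25697 probes. The remaining listed gene, Irg1, which encodes the enzyme that makes itaconate from the TCA cycle intermediate cis-aconitate, is not analysed here. RNA was measured on 8 Illumina bead arrays, 2 for each of 4 groups. The cells were bone marrow-derived macrophages from 8-week-old female C57bl/6J mice, either wild type (WT) or labelled iNOS-/-, and every culture had received GM-CSF (10 ng/ml) for 7 days. Unstimulated cells had no further treatment, and M1 cells had been given IFN-γ at 10 ng/ml together with LPS at 200 ng/ml, for 6 h. LPS comes from the wall of Gram-negative bacteria, IFN-γ is a cytokine of T and NK cells, and the pair drives classical (M1) activation. The methods name the mutant as B6.129P2-Nos2tm1Lau/J, a whole-body mutant of the gene for inducible nitric oxide synthase, so every cell of the culture carries it. The sources do not say whether the 2 arrays of a group came from separate mice or cultures, so the p-values measure only the spread between these arrays, which may be technical.

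The TCA cycle oxidizes acetyl groups in the mitochondrion and passes the electrons to the respiratory chain. In macrophages activated with LPS and IFN-γ the cycle is known to be remodelled, with citrate drawn off for lipid synthesis and itaconate production and with succinate and fumarate accumulating. Nitric oxide is itself known as an inhibitor of mitochondrial enzymes. The arrays measured RNA only, and neither enzyme activity nor metabolites.

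Each value below comes from a single 50-base probe on the array. The first 30 bases of 9 probes are shown, because the finding for each gene rests on that one oligonucleotide and because the probes of Mdh1 did not give the same signal. Each sequence is 5′ to 3′, and the number before it is the position in the transcript as the array's table gives it.
Cs, citrate synthase, position 2420, chromosome 10: cagcagttacacacagttcccactgaatat
Idh1, position 1387, chromosome 1: ggtcaaacctgggcttagaatgagtctttg
Idh2, position 1592, chromosome 7: cagtgttctgcatactgtaatttatattgc
Idh3a, position 2216, chromosome 9: aatgtaccctggtcccaaggggatttctta
Ogdh, position 3808, chromosome 11: tctgagtacggcccagaagctccattggct
Fh1, position 1241, chromosome 1: tgtgttgcactcagcgaggctactgggaga
Mdh1, position 397, chromosome 11: cctactgaaagccaatgtgaaaatcttcaa
Mdh1, position 1450, chromosome 11: aggaagcccaatcaatttcagagggatccc
Mdh2, position 1076, chromosome 5: gcgaggactttgtcaagaacatgaagtgag

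A probe was counted as detected on an array where its detection p-value, set against negative control beads, was under 0.05. The Mdh1 probe at position 1450 and 1 further Mdh1 probe were detected on 0 of 8 arrays and were not tested. The other 8 probes, 1 per gene, were detected on all 8 arrays, so that no gene passed the filter through a single group. Levels are log2 intensities after scaling of every array to their mean, and they are compared between groups for 1 probe at a time. Changes are log2 fold changes with their standard error (SE) from limma, and a change was called when its adjusted p, over 13868 probes, was under 0.05.

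The arrays had 46.0 to 49.3% of probes detected, and mean intensities of 155.4 to 224.5 before scaling. All 6 genes of a list of M1 genes were called higher after activation in both genotypes, and all 6 were called higher in iNOS-/- M1 than in WT M1 cells. Before activation 4 of the 6 were already called higher and 1 lower in iNOS-/- cells. The difference between the responses of the genotypes was called higher for 2 and lower for 1. All 10 macrophage marker symbols, 3 of which are lysozyme entries (Lyz, Lyz2 and Lyzs), were detected on both arrays of every group. Between the M1 groups 3 of them were called higher and 4 lower in iNOS-/- cells, against 24.2% and 24.3% of all tested probes. With quantile normalization 2 were called higher and 5 lower. Nos2, the targeted gene, was detected on no unstimulated array and was induced in both genotypes. Its log2 change from WT M1 to iNOS-/- M1 was 0.36 (SE 0.32, adjusted p = 0.397, limma), so the iNOS-/- arrays did not have less of it and it does not check the genotype labels. Every genotype direction below is that of the labels.

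**Figure D1:**
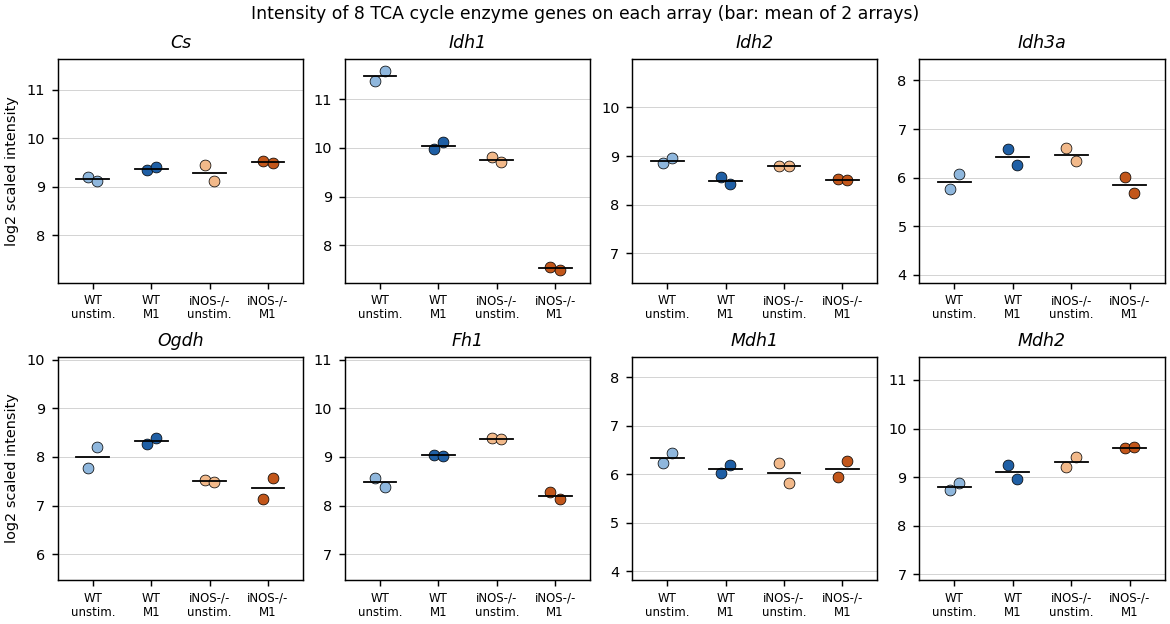
Log2 scaled intensity (vertical axis) of the 8 tested genes on each of the 8 arrays, by group on the horizontal axis. Points are arrays and bars are means of 2 arrays, all panels span the same range of log2 units, and Idh1 shows the widest separation, from 11.47 in WT unstimulated cells to 7.52 in iNOS-/- M1 cells.

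Among the 8 genes, Idh1 had the largest change in each of the 4 pairwise comparisons. It encodes the cytosolic NADP-dependent isocitrate dehydrogenase, which makes NADPH and 2-oxoglutarate outside the mitochondrion. The log2 intensities were 11.37 and 11.58 in WT unstimulated, 9.97 and 10.13 in WT M1, 9.81 and 9.71 in iNOS-/- unstimulated, and 7.56 and 7.48 in iNOS-/- M1 cells. The arrays fell into 4 levels without overlap, with WT M1 just above iNOS-/- unstimulated, a neighbouring pair that was not tested. Activation lowered Idh1 2.69-fold in WT cells (log2 change -1.43, SE 0.12, adjusted p = 0.000923, limma). In iNOS-/- cells it lowered Idh1 4.73-fold (log2 change -2.24, SE 0.12, adjusted p = 0.000111). Both genotypes therefore moved in the same direction, by different amounts. The difference between the responses was -0.82 (SE 0.17, adjusted p = 0.0136). Idh1 was also lower in iNOS-/- than in WT cells at rest, 3.28-fold (adjusted p = 0.000579), and after activation, 5.78-fold (adjusted p = 0.000183). Of the 8 genes, Idh1 alone was called in all 4 pairwise comparisons with a fold above 2 in each.

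Fh1 responded in opposite directions in the 2 genotypes. It encodes fumarate hydratase, which converts fumarate to malate in the mitochondrion and in the cytosol. Its log2 intensities were 8.56 and 8.39 in WT unstimulated, 9.04 and 9.03 in WT M1, 9.40 and 9.36 in iNOS-/- unstimulated, and 8.28 and 8.13 in iNOS-/- M1 cells. No 2 groups overlapped, and the order was iNOS-/- unstimulated, WT M1, WT unstimulated, iNOS-/- M1, with a narrow gap between the last pair, which was not tested. In WT cells Fh1 rose 1.48-fold on activation (log2 change 0.57, SE 0.10, adjusted p = 0.0109, limma). That call was lost without WT unstimulated replicate 2 (adjusted p = 0.0545) and without WT M1 replicate 1 (0.0513) or 2 (0.0506). In iNOS-/- cells Fh1 fell 2.25-fold (log2 change -1.17, adjusted p = 0.000507), and the 2 responses differed by -1.74 (SE 0.14, adjusted p = 0.000934). At rest Fh1 was 1.88-fold higher in iNOS-/- cells (adjusted p = 0.00255), and after activation it was 1.78-fold lower (adjusted p = 0.00198). Those 4 calls kept an adjusted p under 0.05 in every alternative fit, although the folds between genotypes at rest and after activation are under 2.

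Idh3a, the catalytic subunit of the mitochondrial NAD-dependent isocitrate dehydrogenase, had the same order of groups at smaller size. Its log2 intensities were 5.76 and 6.07 in WT unstimulated, 6.59 and 6.25 in WT M1, 6.60 and 6.35 in iNOS-/- unstimulated, and 6.01 and 5.68 in iNOS-/- M1 cells. WT M1 overlapped iNOS-/- unstimulated, and WT unstimulated overlapped iNOS-/- M1, while these pairs of groups did not overlap each other. The response of WT cells was 0.51 (SE 0.20, adjusted p = 0.111, limma) and was not called. The response of iNOS-/- cells was -0.63 (SE 0.20, adjusted p = 0.0494), just inside the threshold, and was lost when any 1 array was left out (adjusted p = 0.0553 to 0.194). The 2 responses differed by -1.14 (SE 0.29, adjusted p = 0.027), a call lost without WT unstimulated replicate 1 (0.079), WT M1 replicate 1 (0.0744), iNOS-/- unstimulated replicate 1 (0.084) or iNOS-/- M1 replicate 2 (0.0709).

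Idh2, the mitochondrial NADP-dependent isocitrate dehydrogenase, was slightly lower after activation in both genotypes. It measured 8.85 and 8.96 in WT unstimulated, 8.56 and 8.43 in WT M1, 8.79 and 8.79 in iNOS-/- unstimulated, and 8.52 and 8.50 in iNOS-/- M1 cells. Unstimulated and M1 arrays did not overlap, and the M1 arrays of the 2 genotypes did. The log2 change was -0.41 (SE 0.09, adjusted p = 0.0216, limma) in WT cells and -0.29 (SE 0.09, adjusted p = 0.0485) in iNOS-/- cells. The WT call was lost without WT unstimulated replicate 1 (0.0542) or 2 (0.1) or WT M1 replicate 2 (0.0924), and the iNOS-/- call without any 1 of the 8 arrays (0.0573 to 0.148). The responses of the 2 genotypes differed by 0.13 (95% interval -0.20 to 0.45), and iNOS-/- M1 differed from WT M1 by 0.01 (95% interval -0.22 to 0.24).

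Ogdh encodes the first subunit of the 2-oxoglutarate dehydrogenase complex, which makes succinyl-CoA. Its log2 intensities were 7.77 and 8.21 in WT unstimulated, 8.26 and 8.39 in WT M1, 7.52 and 7.49 in iNOS-/- unstimulated, and 7.14 and 7.57 in iNOS-/- M1 cells. All 4 WT arrays lay above all 4 iNOS-/- arrays. After activation Ogdh was 1.96-fold lower in iNOS-/- than in WT cells (log2 change -0.97, SE 0.21, adjusted p = 0.0135, limma). That call was lost without WT M1 replicate 2 (0.066) or iNOS-/- M1 replicate 1 (0.053). The difference at rest was -0.49 (SE 0.21, adjusted p = 0.136), and neither response to activation was called.

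The malate dehydrogenases interconvert malate and oxaloacetate, Mdh1 in the cytosol and Mdh2 in the mitochondrion. Mdh2 measured 8.74 and 8.87 in WT unstimulated, 9.24 and 8.97 in WT M1, 9.20 and 9.41 in iNOS-/- unstimulated, and 9.60 and 9.62 in iNOS-/- M1 cells. The iNOS-/- M1 arrays were the brightest and the WT unstimulated arrays the dimmest, and the middle groups overlapped. Mdh2 was higher in iNOS-/- than in WT cells after activation (log2 change 0.51, SE 0.13, adjusted p = 0.027, limma) and at rest (0.50, adjusted p = 0.0399). Both calls depended on the settings. After activation the adjusted p was 0.21 with quantile normalization and 0.106 without WT M1 replicate 2, 0.0842 without iNOS-/- M1 replicate 1 and 0.0902 without iNOS-/- M1 replicate 2. The call at rest was lost without either replicate of WT unstimulated (0.16, 0.0957), iNOS-/- unstimulated (0.0714, 0.165) or iNOS-/- M1 (0.0651 each). The Mdh1 probe at position 397 lay between 5.81 and 6.43 on all 8 arrays and was called in no comparison.

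Cs, citrate synthase, which joins acetyl-CoA and oxaloacetate, lay between 9.12 and 9.54 and was also called in no comparison. Its log2 change on activation was 0.22 in WT cells (95% interval -0.11 to 0.54) and 0.22 in iNOS-/- cells (95% interval -0.11 to 0.55). With quantile normalization the second value was -0.15, so the direction of Cs in iNOS-/- cells depends on the scaling.

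**Figure D2:**
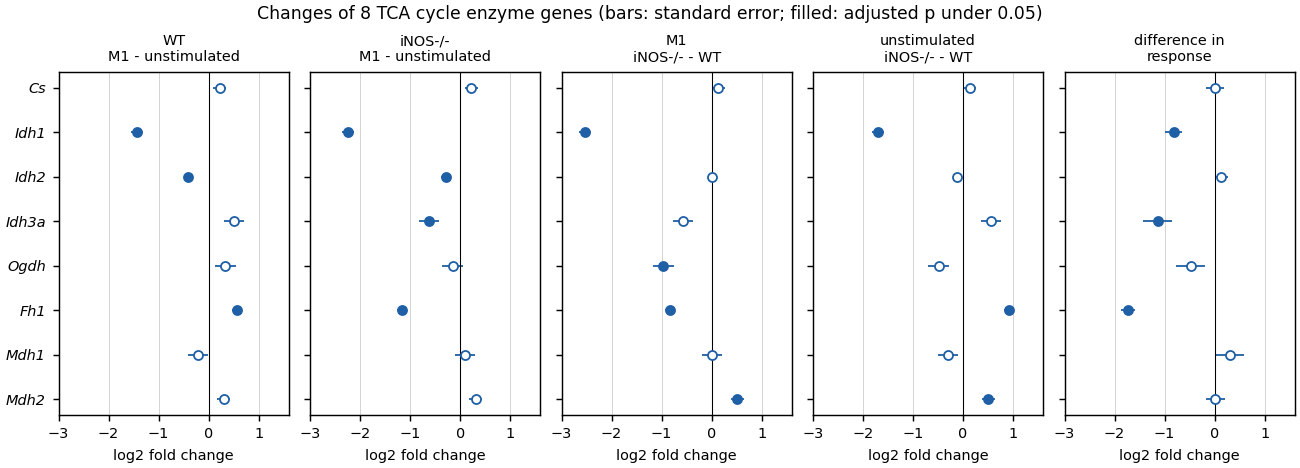
Log2 fold change (horizontal axis) of the 8 genes (vertical axis) in the 4 pairwise comparisons and in the difference between the responses of the genotypes. Points are limma estimates, bars are 1 SE, and filled points have an adjusted p under 0.05; Idh1 lies far to the left in all pairwise panels, while Fh1 is right of 0 in WT cells and left of 0 in iNOS-/- cells on activation.

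Counted over the 8 genes, activation of WT cells raised 1 and lowered 2, with a median log2 change of 0.26. Over all tested probes 20.2% were called higher and 14.9% lower, with a median of 0.07. Activation of iNOS-/- cells raised 0 and lowered 4 of the 8, against 26.2% higher and 23.8% lower over all probes, and the medians were -0.22 and 0.04. Between the M1 groups, 1 gene was called higher and 3 lower in iNOS-/- cells, against 24.2% higher and 24.3% lower over all probes. Between the unstimulated groups, 2 were called higher and 1 lower, against 15.9% and 16.2%. The difference between the responses was called higher for 0 and lower for 3 genes, against 20.8% and 21.1%. With so many probes called in every comparison, these counts of 8 are a description of the genes and no sign that they were affected more than other genes. Of all called probes, 57.6% were higher on activation of WT cells and 52.4% on activation of iNOS-/- cells, shares that were 47.4% and 41.9% with quantile normalization. The comparisons share groups and are not independent of each other.

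Markers of dividing cells moved with Fh1 and Idh3a. The list held 10 genes on the table, of which 8 were tested. Their summed scaled intensity was 678 to 771 in WT unstimulated, 2071 to 2223 in WT M1, 2459 to 2474 in iNOS-/- unstimulated and 840 to 849 in iNOS-/- M1 cells. The 2 groups in which Fh1 was high were thus the groups in which these markers were high. On activation 7 of the 8 were called higher in WT cells (median log2 change 1.67) and 7 lower in iNOS-/- cells (median -1.71). Bub1 and Ccnb2 were detected on no array of any group. The part of cell division in the levels of Fh1 and Idh3a was not tested, and in these bulk samples fewer cells of a type and less RNA per cell cannot be told apart.

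**Figure D3:**
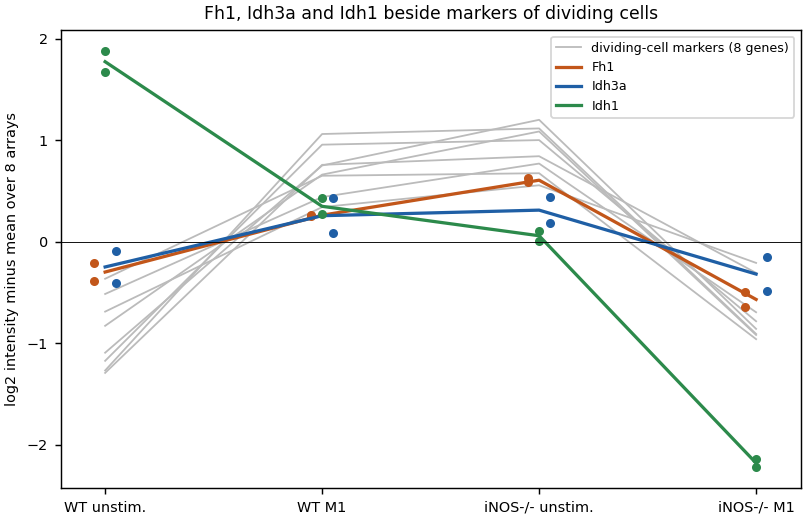
Log2 intensity minus the mean over 8 arrays (vertical axis) in the 4 groups (horizontal axis) for Fh1, Idh3a and Idh1 (coloured lines are group means, points are arrays) and for 8 markers of dividing cells (grey lines, group means). Fh1, Idh3a and the markers are high in WT M1 and iNOS-/- unstimulated cells, whereas Idh1 falls from group to group.

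Markers of other cell types also differed between the groups. The summed intensity of dendritic cell markers was 367 to 428 in WT unstimulated, 1734 to 1780 in WT M1, 1551 to 1565 in iNOS-/- unstimulated and 5510 to 5564 in iNOS-/- M1 cells. Granulocyte markers summed to 1125 to 1157, 1383 to 1498, 1657 to 1727 and 3934 to 4036 in the same order. Flt3 was detected on no array, nor was Mpo. In iNOS-/- M1 cells the dendritic cell sum was set mainly by Cd83 (mean log2 intensity 11.11), Ccr7 (10.90) and Ciita (10.15). With the reported scaling all of these were called higher on activation in both genotypes. S100a8 was the brightest granulocyte gene in every group, at 9.86, 10.13, 10.40 and 11.52 in the order given above. The dendritic cell and granulocyte sums were lowest where Idh1 was highest and highest where Idh1 was lowest, but single genes of the lists differed in direction. Ccr7, a chemokine receptor gene, had a mean log2 intensity of 3.67 in WT unstimulated and 10.90 in iNOS-/- M1 cells. In the same 2 groups Itgax, which encodes CD11c, had 7.58 and 7.56, and Cd209a was undetected. In WT M1 and iNOS-/- unstimulated cells Itgax had 7.97 and 7.96, and Cd209a was detected, at 4.96 and 5.27. Of the granulocyte genes, S100a9 was undetected in WT unstimulated and at 9.53 in iNOS-/- M1 cells, while Mmp8, a neutrophil collagenase gene, was highest in WT unstimulated cells, at 7.53. The macrophage markers summed to 56682 to 57546, 64212 to 66812, 46059 to 47685 and 67156 to 68535 in the order given above, highest where Idh1 was lowest. That sum mainly follows the lysozyme entries Lyz, Lyz2 and Lyzs, at 14.43, 14.37 and 13.22 in iNOS-/- M1 cells. Of this list, Cd68 had the group order of Idh1, at 12.20, 11.18, 10.63 and 10.29. So did Csf1r, the M-CSF receptor gene, at 11.75, 11.42, 11.35 and 10.16. Other macrophage markers did not, and Cd14 (12.99), Mertk (9.91) and Emr1 (11.65) were highest in iNOS-/- M1 cells, where Fcgr1 (7.17) was lowest. The part of any of these markers in the level of Idh1 was not tested.

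The probes most like each gene were found by Pearson's r over the 8 arrays, as a description. For Fh1 these were Tk1 (r = 0.9964), thymidine kinase, and Clspn (r = 0.9962), a protein of the DNA replication checkpoint, and 4 probes of other genes reached an r of at least 0.99. For Idh1 they were Sox7 (0.9981) and Tmem23 (0.9980), with 68 probes at an r of at least 0.99. For Idh3a they were Mrpl49 (0.9849), of the mitochondrial ribosome, and Lrg1 (0.9691), and for Ogdh Tyro3 (0.9800) and BC008163 (0.9774). Idh2 was closest to Ufsp2 (0.9792) and Socs5 (0.9743), Cs to V1rd6 (0.975) and Flii (0.9685), Mdh2 to Fam115c (0.9854) and 0910001A06Rik (0.9825), and Mdh1 to Wtap (0.9098) and 9430077A04Rik (0.9042). The arrays form 4 groups of 2, so that a high r mainly reflects the order of 4 group means.

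The other enzymes of the cycle are given next. Of 11 genes considered, 10 were tested, and Sucla2, a subunit of succinyl-CoA synthetase, was detected on no array. In WT cells activation lowered Sdhb, the iron-sulphur subunit of succinate dehydrogenase (log2 change -0.55, adjusted p = 0.0218, limma). In iNOS-/- cells it raised Dld, the shared dihydrolipoamide dehydrogenase subunit (0.87, adjusted p = 0.00285), and lowered Aco1, cytosolic aconitase (-1.17, adjusted p = 0.0229), and Suclg2, of succinyl-CoA synthetase (-0.71, adjusted p = 0.0166). Between the M1 groups, Dld was higher in iNOS-/- cells (0.78), and Aco1 (-1.54) and Suclg2 (-0.76) were lower. Of the 10, these are 0 called higher and 1 lower in the WT response, 1 and 2 in the iNOS-/- response and 1 and 2 between the M1 groups, to be read beside the shares of all probes given above. With the reported scaling none of the 10 was called at rest, and Dld alone differed in its response (0.93, adjusted p = 0.0105, limma). With that scaling the values of Idh3b, Idh3g, Dlst, Suclg1, Sdhc and Sdhd passed the test in no comparison, with Sdhd at -0.86 (adjusted p = 0.0542) on activation of WT cells.

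The count for these 10 enzymes depended on the scaling. On activation of iNOS-/- cells 1 was called higher and 2 lower, and with quantile normalization 1 higher and 7 lower, as also with neqc, limma's background correction with quantile normalization. Their median log2 change was -0.17 with the reported scaling, -0.60 with quantile normalization and -0.55 with neqc. Quantile normalization moved the median of all tested probes in that comparison from 0.043 to -0.130. Relative to those medians the list was lower under each scaling, by amounts that differed. Between the M1 groups 2, 4 and 5 of the 10 were called lower with the reported scaling, quantile normalization and neqc. At rest none was called with the reported scaling, 2 were higher with quantile normalization and 3 with neqc. The difference in response was called higher for 1 and lower for 0, 3 and 4 in turn, with medians of 0.01, -0.42 and -0.39. The Idh1 and Fh1 calls in iNOS-/- cells were the same under each scaling.

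**Figure D4:**
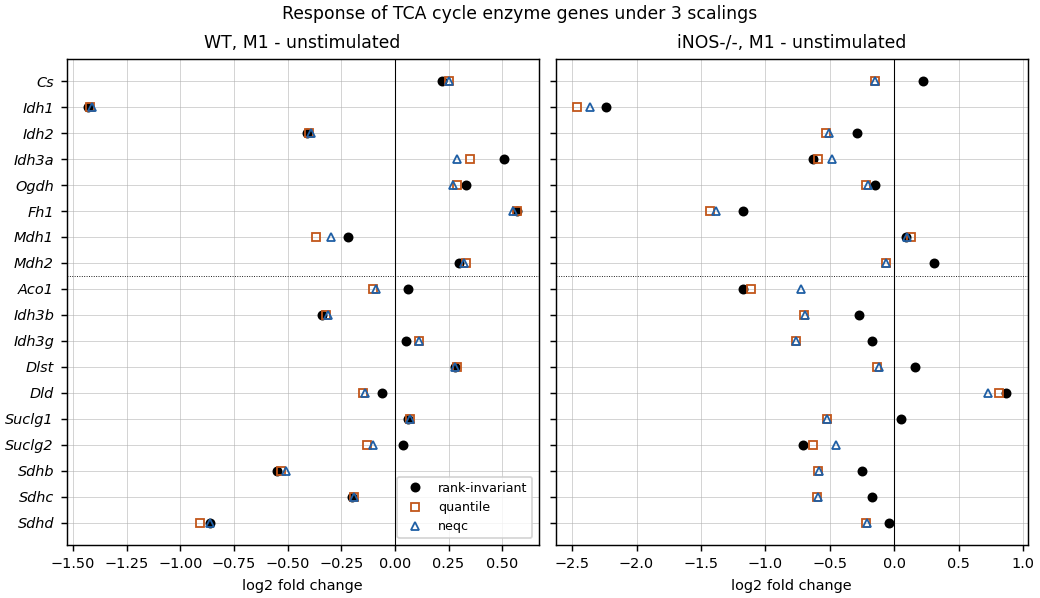
Log2 fold change on activation (horizontal axis) of the 8 genes and, below the dotted line, the 10 other tested enzymes of the cycle, in WT and iNOS-/- cells, under 3 scalings of the same arrays. In WT cells the symbols nearly coincide for most genes; in iNOS-/- cells quantile normalization and neqc lie to the left for many genes, and Cs, Mdh2, Dlst and Suclg1 change sign.

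Of 7 tested genes that feed the cycle from pyruvate, 1 was called higher and 2 lower in the WT response. The counts were 1 and 3 in the iNOS-/- response, 1 and 2 between M1 groups and 1 and 1 at rest. They are to be read beside the shares of all probes given above. Between M1 groups they were 1 and 3 with quantile normalization and 2 and 3 with neqc. Pdk3 and Ppm2c were called in every pairwise comparison. Pdk3, a kinase that inhibits pyruvate dehydrogenase, rose on activation in WT (log2 change 1.30, adjusted p = 0.0105, limma) and in iNOS-/- cells (1.01, adjusted p = 0.0154). It was also higher in iNOS-/- than in WT cells at rest (1.46) and after activation (1.17). Ppm2c, which encodes a phosphatase that reactivates pyruvate dehydrogenase, moved the other way, at -1.29 in WT and -0.86 in iNOS-/- cells on activation, and at -1.54 at rest and -1.12 after activation between genotypes. Dlat, the acetyltransferase subunit, fell in WT (-0.57) and in iNOS-/- cells (-0.46). Pdk1 fell in iNOS-/- cells (-0.73) and was lower in iNOS-/- than in WT cells after activation (-0.83). Its responses in the genotypes differed by -1.07 (adjusted p = 0.0224, limma).

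Of 12 tested genes of citrate, malate and glutamine exchange, 4 were called higher and 1 lower in WT cells on activation, against 20.2% and 14.9% of all probes. The WT counts include Gls2 and Glul, each detected on 1 array of the higher group. In iNOS-/- cells 4 were called higher and 6 lower, where 26.2% and 23.8% of all probes were called higher and lower. The iNOS-/- counts depended on the scaling, with 2 higher and 7 lower under quantile normalization and 1 higher and 6 lower under neqc, and the median of the list was -0.09, -0.55 and -0.33 in turn. Me2, mitochondrial malic enzyme, had the pattern of Fh1. It measured 5.55 and 5.41 in WT unstimulated, 6.30 and 6.49 in WT M1, 6.47 and 6.46 in iNOS-/- unstimulated, and 5.18 and 5.30 in iNOS-/- M1 cells. WT M1 and iNOS-/- unstimulated arrays overlapped and lay above the rest. Me2 rose in WT (0.92, adjusted p = 0.00308) and fell in iNOS-/- cells (-1.22, adjusted p = 0.000578), and the responses differed by -2.14 (adjusted p = 0.000667). The mitochondrial dicarboxylate carrier Slc25a10 was lower in iNOS-/- than in WT cells after activation (-1.26), with a difference in response of -1.15, and Slc25a12, an aspartate-glutamate carrier, was higher both then (0.63) and at rest (0.66). The 2-oxoglutarate carrier Slc25a11 rose in WT cells (0.41) and fell in iNOS-/- cells (-0.37), with a difference in response of -0.78 (adjusted p = 0.0074). The citrate carrier Slc25a1 was lower in iNOS-/- cells at rest (-0.56) and rose in them on activation (0.46).

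Several genes of that list were undetected in at least 1 group, for which at most a bound is known. Aldh5a1, succinate semialdehyde dehydrogenase, was at least 1.13-fold lower in iNOS-/- M1 than in iNOS-/- unstimulated cells. Slc25a13, a further aspartate-glutamate carrier, was undetected in iNOS-/- unstimulated cells, at least 1.96-fold below WT unstimulated cells and also below iNOS-/- M1 cells. Gls2, a glutaminase, was detected on both iNOS-/- M1 arrays, at 5.41 and 5.41, and on 1 of 2 arrays each in WT M1 and iNOS-/- unstimulated cells, so that no fold is given. Glul, glutamine synthetase, was undetected in both M1 groups, and its fall in iNOS-/- cells has no fold either, since its bound is under 1.

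Of 7 genes on the table that handle itaconate, succinate or methylmalonyl-CoA, 3 were tested. Mcee, methylmalonyl-CoA epimerase, was lower after activation in WT (-0.76, adjusted p = 0.00701, limma) and iNOS-/- cells (-0.54, adjusted p = 0.0137). It was also lower in iNOS-/- than in WT cells at rest (-0.73, adjusted p = 0.00829) and after activation (-0.51, adjusted p = 0.0179). Pccb, of propionyl-CoA carboxylase, fell in iNOS-/- cells (-0.69, adjusted p = 0.0209) and was lower in iNOS-/- M1 than in WT M1 cells (-0.69, adjusted p = 0.0225). In WT cells its change of -0.58 was just outside the threshold (adjusted p = 0.0502, limma). The responses of Pccb in the genotypes differed by -0.11 (adjusted p = 0.747), which was not called. Clybl, which takes part in itaconate breakdown, the succinate receptor gene Sucnr1 and Mut were detected on no array.

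The promoters of the members were searched for 6 motifs on both strands, as a description, in windows from 250 bases before to 50 after each start in RefSeq (GRCm38.p6). Windows were found for 7 of the 8 genes. The motifs were the interferon-gamma element TTCNNNGAA, held by 8.30% of 32851 windows, GAAANNGAA, of interferon-stimulated elements (8.56%), the NF-kB motif (8.46%), TCAAGGTCA, bound by estrogen-related receptors (0.42%), GCGCATGCG, bound by NRF1 (1.75%), and the E-box CACGTG (7.15%). None was in the windows of Cs, Idh1, Fh1, Mdh1 and Mdh2. Idh2 held the NF-kB motif, and Ogdh, with 6 windows, the NF-kB, NRF1 and E-box motifs. The NRF1 match of Ogdh is shown with the motif in capitals, since it is the rarest motif matched in a member.
Ogdh, chr11:6292533-6292562, plus strand: taggtgttgtGCGCATGCGtaactcaactt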

How the data were processed

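Total RNA of 8 samples was hybridized to Illumina beadchips, named MouseRef-8 in one place and MouseWG-8 in another by the sources. The authors deposited a GenomeStudio report with the intensity of each probe, not normalized between arrays, and for every probe on every array a detection p-value. The methods name background subtraction, rank-invariant normalization, negative values set to 1, log2 and limma with Benjamini-Hochberg correction. Undetected probes lie around 0, so no background was subtracted here.

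Arrays were brought to the level of their mean by a robust line through the origin (MASS 7.3-60.0.1) over probes whose rank differed by less than 0.05, between 0.5 and 0.9 of all ranks. The methods do not specify this line. In all, 3 forms were fitted (Huber weights with the mean array on the array, Huber weights the other way round, and bisquare weights), and results of the first 2 for these genes had been seen when the bisquare form was kept. It was kept because it gave the same counts of called probes over the whole table as an earlier processing of these data; the other forms are given as alternatives. Values under 1 were set to 1. Probes detected on at least 2 arrays were fitted with limma 3.58.1 (R 4.3.3) as 4 groups over 8 arrays. The number of arrays limits the precision. Value columns without a sample numbered 0.

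The genes, lists and tests were chosen with earlier results of these data known. Some genes of the lists and 1 probe sequence are not reported here, and lists are counted without those genes. Every member gene and every other listed TCA enzyme is named, and of the pyruvate, exchange and itaconate lists, per list and comparison, the 2 largest called changes each way where both arrays of the higher group were detected and the groups did not overlap, with further genes named after their values were seen. For genes other than the members only the brightest probe is given. Bounds set the bright group's mean against, per dim array, the lowest detected signal or the probe's signal, whichever was higher. Alternatives were quantile normalization, neqc, a floor of 16, other detection filters, a replicate block, a 2-fold minimum, a fit of only the 4 arrays compared and each array left out. The procedure was tested on simulated data.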

Additional observations from a re-analysis of the deposited data

Results flagged for a closer look

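For 3 of the 8 genes the response to activation differed between the genotypes by the test of the difference itself. Over all tested probes 20.8% were called higher and 21.1% lower in that test, so the count is no sign that these genes were affected more than others. The log2 difference was -1.74 for Fh1 (adjusted p = 0.000934, limma), -1.14 for Idh3a (adjusted p = 0.027) and -0.82 for Idh1 (adjusted p = 0.0136). Fh1 and Idh3a moved up in WT and down in iNOS-/- cells, although the rise of Idh3a was not called, and Idh1 fell in both. No group had enough arrays for a check of single outlying arrays.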

How the results depend on the processing

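The calls of Idh1 in every comparison and of Fh1 in every comparison but the WT response kept an adjusted p under 0.05 in every alternative fit; a 2-fold minimum removes Fh1 in the WT response, between M1 groups and at rest, and Idh1 in the difference in response. The scaling line was chosen among 3 forms after results had been seen, and 1 borderline call depends on it: with Huber weights and the array on the mean array, the fall of Idh2 in iNOS-/- cells had an adjusted p of 0.0511 (log2 change -0.28). Every other member call was the same under both Huber forms.

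The number of genes called in the iNOS-/- response was 4, and 2 with the replicate block, on the 4 arrays of the comparison, with a 2-fold minimum and whichever array was left out. In the WT response it was 3, and 1 with a 2-fold minimum and 1 to 3 with an array left out. Between M1 groups it was 4, with 1 and 2 to 4, and between unstimulated groups it was 3, with 1 at 2-fold and 5 with neqc. The replicate block gave 3 calls between M1 groups and 2 between unstimulated groups. Replicate numbers did not pair the arrays (r of deviations -0.034 to 0.027).

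Only uncalled changes reversed. In the iNOS-/- response, quantile normalization and neqc gave -0.15 and -0.15 for Cs and -0.065 and -0.063 for Mdh2, and leaving out arrays gave -0.37 to 0.059 for Ogdh and -0.13 to 0.30 for Mdh1. Between M1 groups they gave -0.12 and -0.12 for Cs, -0.12 and -0.11 for Idh2 and 0.12 and 0.10 for Mdh1, and leaving out arrays gave -0.056 to 0.078 for Idh2 and -0.17 to 0.16 for Mdh1, with -0.022 for Idh2 and 0.0079 for Mdh1 under a Huber form each. Between unstimulated groups they gave 0.0101 and 0.0098 for Idh2, and leaving out arrays -0.035 to 0.29 for Cs. For the difference in response they gave -0.41 and -0.40 for Cs, -0.13 and -0.12 for Idh2 and -0.39 and -0.38 for Mdh2, a Huber form -0.052 for Cs and -0.049 for Mdh2, and leaving out arrays -0.16 to 0.17 for Cs and -0.12 to 0.14 for Mdh2. The cause was not tested. Probes near background give only bounds.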
